A study of Mus musculus with 22 samples.

Results

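Granulocytic myeloid-derived suppressor cells (G-MDSCs) from mouse mammary tumours treated with entinostat plus both checkpoint antibodies, called the triple combination, were set against G-MDSCs from tumours treated with entinostat alone. The members are all samples of both groups, 4 and 4 of the 22 samples of the series, and all 655 endogenous genes of the panel, of which 420 exceeded the background limit in 1 or more of the groups and could be tested. Tumours were raised by implanting 50000 NT2.5 cells, a line once derived from a mammary tumour that arose spontaneously, into the mammary fat pad of female FVB-Neu-N (neu-N) mice aged 7 to 8 weeks, which carry the rat neu (HER2) gene as a transgene. Mice of the triple combination received entinostat by mouth at 5 mg/kg each day, and anti-PD-1 and anti-CTLA-4 at 100 µg of each per mouse, 2 times a week, for 3 weeks from day 3 after implantation. Mice of the entinostat group received the same entinostat course, and the labels do not say whether they were given isotype antibodies, which vehicle mice received. Used beside these are entinostat plus anti-PD-1 and entinostat plus anti-CTLA-4 (4 samples each), and the vehicle group of 6 samples, given methylcellulose and isotypes, enters the fit, and its values are given for a few genes. The labels mention an anti-HER2 antibody, given in some studies of this model, and do not say whether these mice received it. Ly6G-positive cells were selected on magnetic columns from dissociated tumours, so a sample holds what the column kept, and no label says that every sample came from its own animal.

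Entinostat inhibits class I histone deacetylases, enzymes that remove acetyl groups from histones. PD-1 and CTLA-4 are inhibitory receptors carried mainly by T cells, whose restraint the blocking antibodies relieve. G-MDSCs are neutrophil-like cells of tumour-bearing hosts that restrain T cells, through arginase, reactive oxygen species, prostaglandin E2 and other means, and they carry the calprotectin subunits, formyl peptide receptors, CXCR2 and the G-CSF receptor as neutrophils do. CXCR2 draws such cells out of the marrow and into inflamed tissue, while CXCR4 holds them back in it. The profiling was meant to find transcript changes that go with the weaker suppressive function of treated G-MDSCs.

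Each transcript was counted on the NanoString nCounter system through a fluorescent barcode, without amplification, and values are the deposited normalized counts. The samples of the triple combination are a and b, which share a column name, and 2 and 4, and their values are given in this order. Values of entinostat alone are given in the order of samples 1 to 4. Barcode totals estimated from the step of each sample's values were 391309, 140839, 23296 and 111734 in the triple combination and ran from 107446 to 162080 in entinostat alone. In triple sample 2, the shallowest of the series, 1 barcode count was worth 9.78 normalized counts and the negative controls averaged 28.1, close to the background limit of 29.3 normalized counts, so low values of that sample are coarse. The median over genes of the SD between samples was 0.40 on the log2 scale in the triple combination and 0.28 in entinostat alone. All 4 entinostat samples and triple sample a were run on cartridge 1, and triple samples b, 2 and 4 on cartridge 2, where no entinostat sample was run, so only the comparison of triple sample a with entinostat lies within a cartridge. By lane, triple sample a stood among vehicle samples and vehicle sample 3 among those of the triple combination. The labelled groups were kept, and fits without both samples were made as well.

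The comparison asked how the G-MDSC transcript profile differs when both antibodies are added to entinostat. In the triple combination, transcripts of neutrophils, of chemokine receptors and adhesion molecules and of NF-kB-driven inflammation stood lower as lists, with median log2 fold changes of -0.82, -0.82 and -0.77, but no single gene passed the test across the panel. Medians were about as low for the 4 endothelial markers (-0.78), whose samples overlapped, and for the pan-leukocyte markers (-0.73). By limma on log2(normalized count + 1), with Benjamini-Hochberg adjustment over the 420 genes, 0 genes (0%) had an adjusted p under 0.05, and the lowest adjusted p was 0.0653. At an unadjusted p under 0.05 there were 53 genes (12.6%), 44 lower in the triple combination (10.5%) and 9 higher (2.14%). The spread in this fit is pooled over all 5 groups, not taken from the 2 compared. With only the 8 samples compared, 89 genes were lower and 9 higher at this unadjusted limit, and 1 gene passed. Without sample a of entinostat plus anti-CTLA-4, 85 were lower and 10 higher, and 3 passed. For 78 genes (18.6%) all 4 triple samples lay below all 4 entinostat samples, and for 9 genes (2.14%) all lay above. In 55 of the 78, triple sample a was the lowest of all, and without it 80 genes (19%) had no overlap on the lower side and 14 (3.33%) on the higher. Fold changes, given throughout as triple combination minus entinostat on this log2 scale with their standard errors (SE), were negative for 306 genes (72.9%), with a median of -0.24 and a range from -1.61 to 0.86. The deposited values are scaled so that the housekeeping genes are nearly level, and after median centring the unadjusted split of 44 lower and 9 higher became 23 and 25, and the median 0.066. Counts of genes with no overlap after centring on the median of the tested genes were 39 lower (9.29%) and 20 higher (4.76%). In bulk samples such as these, fewer cells of a type and less RNA per cell cannot be told apart.

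**Figure D1:**
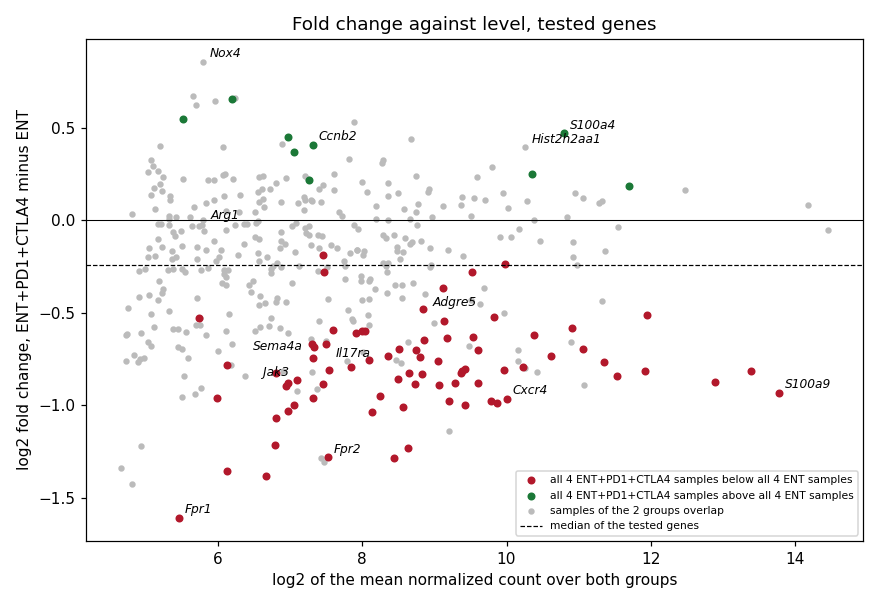
Log2 fold change of each of the 420 tested genes (vertical axis, triple combination minus entinostat) against the log2 of its mean normalized count over both groups (horizontal axis). Red points are the 78 genes whose 4 triple samples all lie below the 4 entinostat samples, green points the 9 for which they all lie above, and grey points the rest. Red points stand at low and at high levels, and the dashed line marks the median of -0.24.

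The 5 lower genes with the smallest p, none of which passed, were Jak3, Il17ra, Fpr1, Sema4a and Adgre5. Jak3, the kinase bound to the common gamma chain of interleukin receptors, stood at 88.8, 120.0, 78.2 and 103 normalized counts in the triple combination, against 174, 188, 179 and 164 in entinostat alone. The groups are far apart, with the highest triple sample well below the lowest entinostat sample, and the log2 fold change was -0.86 ± 0.18 (95% interval -1.25 to -0.48, limma adjusted p = 0.0653). It is the nearest to a call of all genes, and passed in 10 of 40 alternative fits. Il17ra, the receptor subunit shared by interleukin-17 cytokines, stood at 139.6, 142, 137 and 136 in the triple combination and 170.1, 248, 250.3 and 225 in entinostat alone. The 4 triple samples are almost level with each other and entinostat sample 1 is the nearest to them, and the log2 fold change was -0.67 ± 0.19 (limma adjusted p = 0.323). Fpr1, the receptor that guides neutrophils to formylated peptides of bacteria and mitochondria, stood at 20.6, 28.7, 9.78 and 31.0 in the triple combination, of which only sample 4 exceeds the background limit, and at 62.0, 65.0, 71.5 and 63.0 in entinostat alone. Its log2 fold change of -1.61 ± 0.47 was the most negative of all tested genes (limma adjusted p = 0.323), and triple sample 2 rests on a single barcode count. The semaphorin gene Sema4a (-0.68 ± 0.21) and Adgre5, the adhesion receptor CD97 of leukocytes (-0.48 ± 0.15), also had no overlap between the groups.

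Nox4, Ccnb2, S100a4 and Hist2h2aa1 were among the genes with the smallest p on the higher side, and none of them passed. S100a4, a calcium-binding protein of motile cells, stood at 1767, 2622, 1926 and 1957 normalized counts in the triple combination and 1479, 1481, 1543 and 1401 in entinostat alone, and differed by 0.47 ± 0.17 (limma adjusted p = 0.34). For S100a4 and Ccnb2, the cyclin B2 gene of mitosis (0.41 ± 0.14), all triple samples lay above all entinostat samples. In size these fold changes were near that of Adgre5 (-0.48) and smaller than those of Jak3, Il17ra, Fpr1 and Sema4a. After median centring they were 0.78 for S100a4 and 0.71 for Ccnb2. The same scaling gave -0.55 for Jak3, -0.36 for Il17ra, -1.30 for Fpr1, -0.38 for Sema4a and -0.17 for Adgre5, so this order depends on the scaling. Samples overlapped for Nox4, a hydrogen peroxide-making oxidase of stromal and epithelial cells (log2 fold change 0.86 ± 0.29), where triple sample 4 lay below entinostat sample 2. They overlapped too for the histone gene Hist2h2aa1 (0.39 ± 0.15), where triple sample 4 at 1054 lay under entinostat sample 1 at 1118. The fold changes of these 4 genes kept their positive sign under TMM scaling, quantile normalization and median centring.

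The promoter windows of 4 lower genes are shown. Jak3 came nearest to a call, and Fpr2, Cxcr4 and Hdc were called by all 3 count tests described further on. Selplg and Acod1 were called lower by all 3 as well and are not shown, and no window was available for Selplg. This choice was made after their values were seen. Each window runs from 250 bases before to 50 after the RefSeq start of the gene, 300 bases, 5′ to 3′ on the gene's own strand, in build GRCm38.p6. Capitals mark matches, on either strand, to the letters GAGGAAGT (PU.1), TTGCNNAA (C/EBP), GGGANTTCC (NF-kB), TTCNNNGAA (STAT) or TGANTCA (AP-1). Of 32851 such windows in the RefSeq table, 3.2% hold the PU.1 letters, 10.8% the C/EBP, 1.68% the NF-kB, 8.3% the STAT and 7.81% the AP-1 letters.
Jak3 (chr8:71676133-71676432, plus strand): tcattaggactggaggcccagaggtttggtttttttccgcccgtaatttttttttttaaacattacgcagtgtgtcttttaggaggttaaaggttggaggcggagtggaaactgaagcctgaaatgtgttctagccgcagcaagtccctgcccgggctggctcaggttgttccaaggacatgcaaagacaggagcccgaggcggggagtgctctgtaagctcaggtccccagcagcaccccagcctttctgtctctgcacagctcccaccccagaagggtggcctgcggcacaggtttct
Fpr2 (chr17:17887574-17887873, plus strand): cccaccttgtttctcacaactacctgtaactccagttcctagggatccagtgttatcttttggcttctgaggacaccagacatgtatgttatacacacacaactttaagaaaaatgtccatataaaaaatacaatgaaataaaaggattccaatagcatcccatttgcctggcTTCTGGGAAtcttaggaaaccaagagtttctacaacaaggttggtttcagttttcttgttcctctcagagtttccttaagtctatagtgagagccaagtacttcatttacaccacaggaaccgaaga
Cxcr4 (chr1:128592250-128592549, minus strand): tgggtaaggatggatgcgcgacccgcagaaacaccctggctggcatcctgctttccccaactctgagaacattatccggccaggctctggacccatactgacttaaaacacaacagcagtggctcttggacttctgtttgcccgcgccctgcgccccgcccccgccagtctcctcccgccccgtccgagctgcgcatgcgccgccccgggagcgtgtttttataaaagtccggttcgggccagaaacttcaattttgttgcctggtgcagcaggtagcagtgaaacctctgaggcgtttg
Hdc (chr2:126618629-126618928, minus strand): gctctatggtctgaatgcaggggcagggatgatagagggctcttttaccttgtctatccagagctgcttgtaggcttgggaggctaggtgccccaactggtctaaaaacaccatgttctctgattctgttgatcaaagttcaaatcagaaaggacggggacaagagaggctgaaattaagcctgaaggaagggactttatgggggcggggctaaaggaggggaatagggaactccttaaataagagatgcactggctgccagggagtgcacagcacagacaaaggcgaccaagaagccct
One match stands in these windows, to the STAT letters in Fpr2, and the other 3 windows hold none of the 5 sets of letters.

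Genes of neutrophil granules, maturation and identity stood lower in the triple combination. Of 13 tested members 0 passed, 12 had a negative fold change, and 9 had no overlap between the groups, all lower, against 18.6% of all tested genes. Their median log2 fold change was -0.82, beside -0.24 over all 420 genes. The median was -1.18 for triple sample a within cartridge 1, -0.72 without that sample and -0.51 after median centring. Over all 420 genes the medians of these fits were -0.66, -0.14 and 0.066, so triple sample a stood lower across the panel. S100a9, a calprotectin subunit that makes up much of the neutrophil cytosol, stood at 8842, 11476, 8271 and 9362 normalized counts in the triple combination and 17414, 20641, 24140.2 and 12065 in entinostat alone. The triple samples lie close together, and entinostat sample 4 is nearer to them than to its own mates. The log2 fold change was -0.93 ± 0.48 (95% interval -1.95 to 0.079, limma adjusted p = 0.394). Its partner S100a8 ran from 4561 to 6192 in the triple combination and from 6302 to 12607 in entinostat alone (-0.87 ± 0.50), again with entinostat sample 4 the lowest of its group.

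Receptors through which neutrophils are called and primed followed the same order of groups. Fpr2, a second formyl peptide receptor, stood at 85.1, 115, 117 and 109.5 normalized counts in the triple combination and 239, 278, 311 and 218 in entinostat alone. The highest triple sample lies well below the lowest entinostat sample, and the log2 fold change was -1.28 ± 0.53 (limma adjusted p = 0.34). That SE pools the spread of all 5 groups. The SD of Fpr2 was 14.8 in the triple combination and 41.1 in entinostat alone, against 85.2 in entinostat plus anti-CTLA-4 and 66.7 in vehicle. Csf3r, the G-CSF receptor, stood at 324, 458, 616 and 564 in the triple combination and 845, 798, 1013 and 722 in entinostat alone (-0.81 ± 0.41, limma adjusted p = 0.394). Trem1, which amplifies inflammatory signalling in neutrophils, ranged over 262 to 479 in the triple combination and 627 to 977 in entinostat alone (-0.98 ± 0.46), without overlap. The adhesion gene Itgam, which encodes CD11b, ranged over 147 to 205 in the triple combination and 249.6 to 326 in entinostat alone (-0.80 ± 0.44). Ly6g, whose product was used to select the cells, was near background, at 5.82, 5.07, 9.78 and 12.4 in the triple combination and 5.32, 30.2, 18.8 and 22.5 in entinostat alone, and was not tested.

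**Figure D2:**
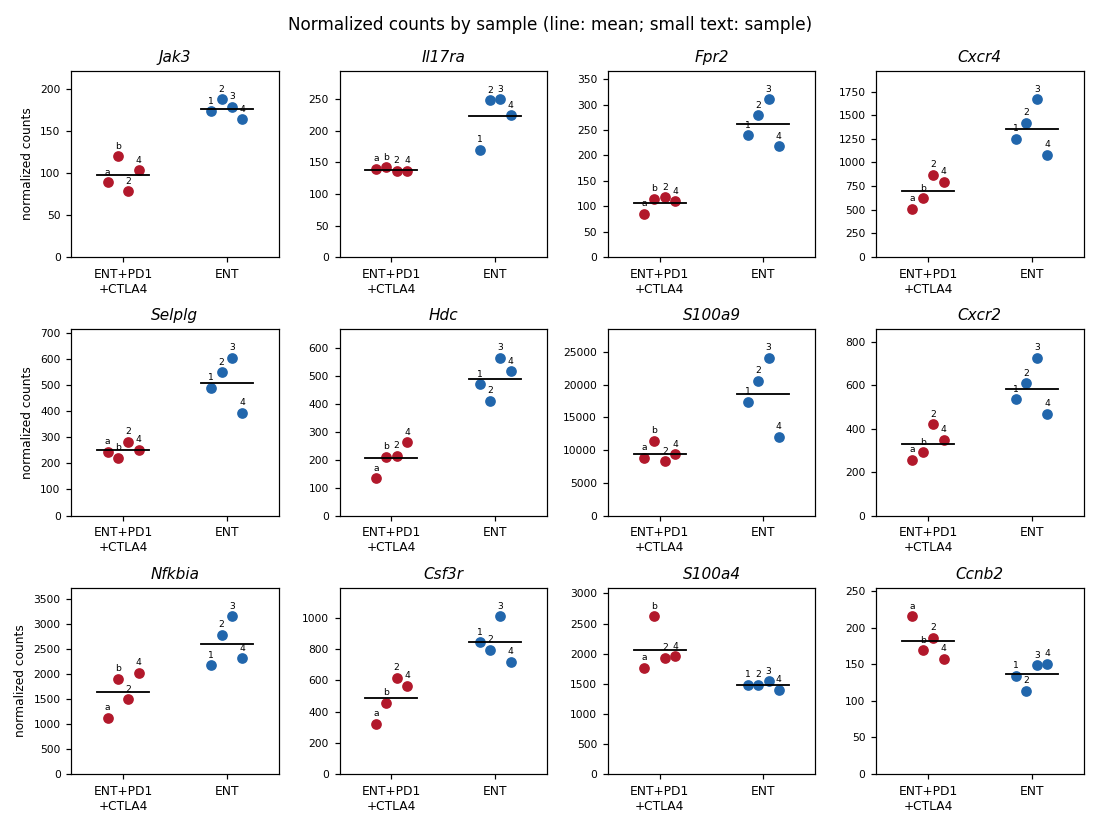
Normalized counts (vertical axes, from 0) of 12 genes in each sample of the triple combination (left, red) and of entinostat alone (right, blue), with the mean as a line and the sample's number or letter beside each point. In the first 10 panels all triple samples lie below all entinostat samples, and in the panels of S100a4 and Ccnb2 they lie above.

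Among 13 tested chemokine receptors and adhesion molecules 0 passed, all 13 fold changes were negative (72.9% of all tested genes), and 9 had no overlap, all lower (18.6% of all). The median log2 fold change was -0.82, and -0.51 after median centring. For triple sample a within cartridge 1 it was -1.16, where the median of all tested genes was -0.66. Members of this list are shared with the neutrophil genes. Cxcr4 stood at 508, 622, 870.1 and 794 normalized counts in the triple combination and 1247, 1418, 1669 and 1079 in entinostat alone. Triple sample a is the lowest and entinostat sample 3 the highest, and the log2 fold change was -0.97 ± 0.40 (limma adjusted p = 0.34). Cxcr2 stood at 258, 291, 420.4 and 347 in the triple combination and 535, 608, 726 and 468 in entinostat alone (-0.83 ± 0.42, limma adjusted p = 0.394). The receptor for release and the receptor for retention thus stood lower together, with no overlap for either. Selplg, the selectin ligand PSGL-1 by which leukocytes roll on vessel walls, stood at 245, 222, 284 and 252 in the triple combination and 491, 550.0, 606 and 393 in entinostat alone (-1.01 ± 0.43). The chemokine receptor Ccr1 (-0.74 ± 0.44) and the chemerin-binding receptor Ccrl2 (-0.82 ± 0.46) had no overlap either.

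NF-kB and TNF-induced genes formed the longest list. Of 21 tested members 0 passed, all 21 had a negative fold change (72.9% of all tested genes) and 10 had no overlap, all lower (18.6% of all), with a median of -0.77 (-0.46 after median centring, -0.56 without triple sample a). After centring on the median of the tested genes, 3 of the 21 had no overlap on the lower side, against 9.29% of all, while 7 of the 13 neutrophil genes and 7 of the 13 chemokine receptor and adhesion genes did. The chemokine Cxcl3, which acts on CXCR2, stood at 20.6, 28.7, 58.7 and 57.9 normalized counts in the triple combination, where samples a and b lay below the background limit, and at 101, 90.5, 105 and 96.7 in entinostat alone, with a fold change of -1.36 ± 0.49 (limma adjusted p = 0.34). Ccl4, a chemokine for monocytes and T cells, ranged over 53.7 to 108 in the triple combination and 126 to 239 in entinostat alone (-1.03 ± 0.45). The feedback inhibitors of NF-kB, which are themselves its targets, stood lower as well. Nfkbia stood at 1120.4, 1912, 1496 and 2029.6 in the triple combination and 2181, 2792, 3162 and 2320.4 in entinostat alone (-0.69 ± 0.32, limma adjusted p = 0.388). Sample a had the lowest level and triple sample 4 came close to entinostat sample 1. For Nfkbiz, an inducible nuclear relative, the log2 fold change was -0.74 ± 0.32, and for Tnfaip3, the ubiquitin-editing enzyme A20, it was -0.84 ± 0.42, both without overlap. Il1b, the main cytokine of the list, ranged over 6369.8 to 9785 in the triple combination and 10651 to 16955 in entinostat alone (-0.82 ± 0.44).

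Most lipid mediator and small-molecule genes had a negative fold change, though fewer did after median centring (5 of 8). Of 8 tested, 0 passed, 7 had a negative fold change and 3 no overlap, all lower, against 72.9% and 18.6% of all tested genes (median -0.71, and -0.39 without triple sample a). Hdc, the enzyme that makes histamine, stood at 134, 211, 215 and 262 normalized counts in the triple combination and 471, 411, 566 and 517 in entinostat alone. Triple sample a is the lowest and none of the triple samples comes near the lowest entinostat sample, and the fold change was -1.28 ± 0.51 (limma adjusted p = 0.34). Alox5, the 5-lipoxygenase of leukotriene synthesis (-0.74 ± 0.45), and Ptafr, the receptor of platelet-activating factor (-0.76 ± 0.53), had no overlap. Ptgs2, the cyclooxygenase of prostaglandin E2 synthesis, stood at 1626, 2036, 870.1 and 1488 in the triple combination and 1832, 3286, 3799.7 and 2224 in entinostat alone (-0.89 ± 0.46, limma adjusted p = 0.394), and triple sample b overlapped entinostat sample 1.

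The effectors by which myeloid cells restrain T cells lay closer to the median of the panel. Of 12 tested, 0 passed, all 12 had a negative fold change and 4 had no overlap, all lower, against 72.9% and 18.6% of all tested genes (median -0.37). These 4 were Stat3, Cebpb, S100a8 and S100a9, of which the calprotectin genes S100a8 and S100a9 were already counted among the neutrophil genes. After median centring 7 of the 12 were negative and the median was -0.065. Arg1, which breaks down arginine, stood at 44.9, 64.2, 78.2 and 33.1 normalized counts in the triple combination and 31.9, 81.2, 71.5 and 40.5 in entinostat alone. The 2 groups cover the same range, and the log2 fold change of -0.002 ± 0.54 has a 95% interval of -1.12 to 1.12, which does not show that the levels are alike. Cd274, the PD-L1 gene, stood at 80.4, 208, 782 and 353 in the triple combination and 438, 392, 365 and 198 in entinostat alone. The triple samples spread widely, with sample a below and sample 2 above every entinostat sample, and the log2 fold change was -0.35 ± 0.71 (limma adjusted p = 0.797, positive under 8 alternative fits). Stat3, a transcription factor of suppressive myeloid cells, stood at 718, 675, 626 and 643 in the triple combination and 812, 866, 774 and 782 in entinostat alone, with no overlap and a difference of -0.28 ± 0.12 (limma adjusted p = 0.34). That difference is about the size of the median of all genes, and it was 0.027 after median centring and 0.058 after quantile normalization. Cebpb, a factor of emergency granulocyte formation, had no overlap and kept a negative fold change under these scalings (-0.58 ± 0.24). The fold changes were -0.39 ± 0.24 for Tgfb1, -0.28 ± 0.19 for the angiogenic factor Vegfa, positive under 4 alternative fits, and -0.18 ± 0.70 for the oxidase subunit Cybb, positive under 12. Nos2 at 12.2, 15.2, 78.2 and 43.4 in the triple combination and 10.6, 20.9, 20.7 and 13.5 in entinostat alone, and Il10 at 7.4, 5.07, 39.1 and 12.4 and 10.6, 16.2, 7.53 and 8.99 in the same groups, lay below the limit by group mean on the log2 scale and were not tested. The 2 highest Nos2 values and the highest Il10 value belong to the triple combination, with sample 2, the shallow one, on top.

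Genes by which myeloid cells speak to T cells were few. Of 7 tested genes of MHC class II and co-stimulation 0 passed, and 2 had no overlap, both lower, against 18.6% of all tested genes. Cd80, a ligand of CTLA-4 and CD28, stood at 43.9, 64.2, 58.7 and 109.5 normalized counts in the triple combination and 147, 128, 179 and 162 in entinostat alone (-1.21 ± 0.42, limma adjusted p = 0.334). Icosl, the ligand of the co-stimulatory receptor ICOS, stood at 36.0, 62.6, 88.0 and 118 in the triple combination and 133, 165, 147 and 146 in entinostat alone (-1.07 ± 0.46). In both, triple sample a is the lowest and triple sample 4 comes closest to entinostat. Cd86 (-0.51 ± 0.61) and the class II loading gene H2-DMa (0.67 ± 0.77) varied more among the triple samples than between the groups, H2-DMa over 6.87 to 176 in the triple combination and 16.9 to 42.5 in entinostat alone. Of 6 tested genes of MHC class I processing, 4 had a positive fold change, none passed and the median of the list was 0.17. Only the chaperone Calr had no overlap, higher (0.18 ± 0.12), against 2.14% of all tested genes on that side. The immunoproteasome subunits Psmb9 (0.65 ± 0.35) and Psmb8 (0.33 ± 0.21) were highest in triple sample 2, and both were negative for triple sample a within cartridge 1. Of 5 interferon response genes none passed and none was without overlap (median -0.22), with Irf1 at -0.45, Ifngr1 at -0.23 and Isg15 at -0.22, of which Ifngr1 and Isg15 turned positive after median centring.

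Sensing and stress genes lay between these. Of 9 tested genes of Toll and NOD signalling none passed, and 1 had no overlap, lower, a share no higher than the 18.6% of all tested genes. It was Tlr6, a partner of Tlr2 for lipopeptides (-0.78 ± 0.30). Its normalized counts were 44.4, 65.9, 58.7 and 37.2 in the triple combination and 101, 76.6, 97.9 and 76.5 in entinostat alone. Nlrp3, the inflammasome sensor (-0.80 ± 0.56), overlapped. Of 12 immediate early and stress genes 0 passed and 4 had no overlap, all lower, against 18.6% of all tested genes (median -0.30, and 0.012 after median centring). They included Gadd45b, which ranged over 391 to 799.8 in the triple combination and 962 to 1639 in entinostat alone (-0.99 ± 0.44), and the phosphatase gene Dusp1 (-0.52 ± 0.23). Hif1a, the oxygen-sensing factor, had a log2 fold change of -0.43 ± 0.17 and overlapped through entinostat sample 4. Of 7 complement genes 0 passed and 1 had no overlap, lower, a share no higher than the 18.6% of all tested genes; it was C5ar1, the C5a receptor of neutrophils (-0.88 ± 0.50), while C3 stood at -0.21. All 4 tested cell cycle genes had a positive fold change (median 0.23), and 0 passed. Only Ccnb2 among them had no overlap, higher, against 2.14% of all tested genes on that side. It stood at 216, 169, 186 and 157 in the triple combination and 135, 114, 149 and 151 in entinostat alone.

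**Figure D3:**
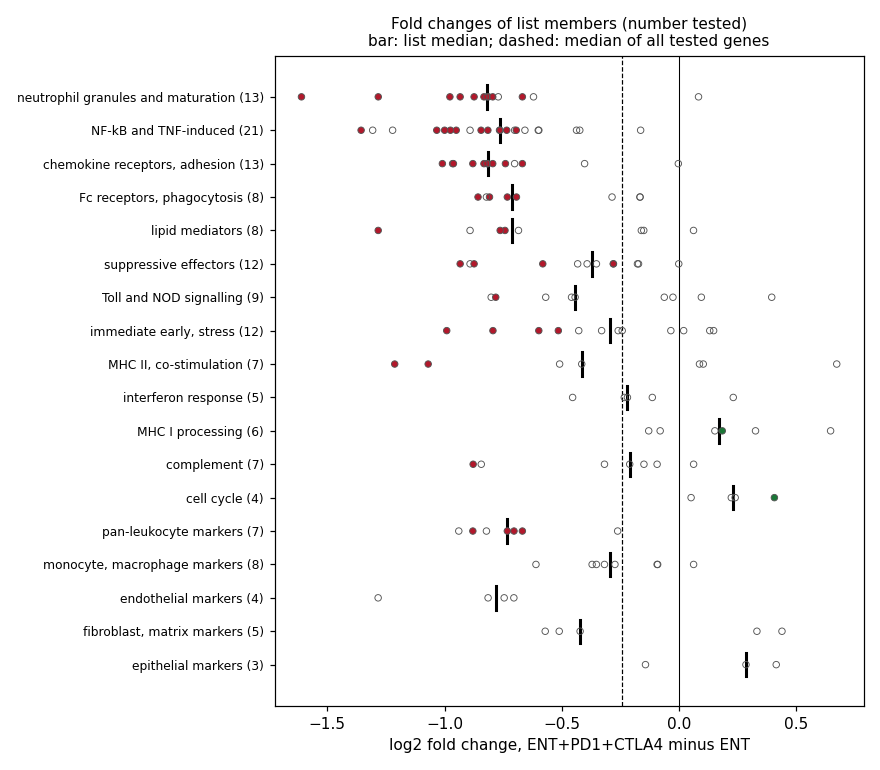
Log2 fold changes (horizontal axis, triple combination minus entinostat) of the tested members of 18 gene lists (rows, with the number tested). Filled red points are members whose triple samples all lie below the entinostat samples, filled green points those that lie above, open points overlap, the bar is the list's median and the dashed line the median of all tested genes. By median, the neutrophil, chemokine receptor, endothelial, NF-kB and pan-leukocyte lists lie furthest left (-0.82 to -0.73), and the cell cycle, MHC class I and epithelial lists lie right of 0.

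Markers carried by all leukocytes also stood lower in the triple combination, and 0 of 7 passed. All 7 tested pan-leukocyte markers had a negative fold change (median -0.73, -0.43 after median centring) and 4 had no overlap, all lower, against 72.9% and 18.6% of all tested genes. Their summed level was 1795, 2687, 2689 and 3193 normalized counts in the triple combination and 4162, 5113, 5081 and 3388 in entinostat alone, without overlap. The common leukocyte antigen gene Ptprc stood at 446, 643, 635 and 657 in the triple combination and 905, 1054, 1086 and 816 in entinostat alone (-0.70 ± 0.40, limma adjusted p = 0.402). The summed level of 10 neutrophil markers was 15171, 19348, 15301 and 15943 in the triple combination and 29574, 35027, 40570 and 20866 in entinostat alone. Of the 8 of these that were tested 0 passed, all were negative and 7 had no overlap, lower, against 18.6% of all tested genes (median -0.85). All 10 markers also belong to the list of neutrophil granules, maturation and identity above, so this is not a separate result. Most of the sum is calprotectin: in triple sample a, S100a8 gave 5097 and S100a9 8842 of the 15171. The part of the share of leukocytes in the samples in the results above was not tested.

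Sums of markers of other cells that the column could have kept overlapped between the groups. The 3 epithelial markers on the panel, Cdh1, Met and Areg, were all detected, and their summed level was 1673, 1576, 1300 and 1290 in the triple combination and 1254, 1186, 1235 and 1470 in entinostat alone. The groups overlap through entinostat sample 4, which also had low neutrophil and pan-leukocyte sums, and the median log2 fold change was 0.28. E-cadherin Cdh1 stood at 1162, 1047, 889.7 and 841 in the triple combination and 882, 717, 768 and 849.9 in entinostat alone (0.28 ± 0.17). Monocyte and macrophage markers summed to 1153 to 4585 in the triple combination and 1563 to 5725 in entinostat alone, with 8 of 11 tested, none without overlap and a median of -0.30 that was 0.011 after median centring. Endothelial markers (4 of 4 tested) summed to 91.3 to 489 in the triple combination and 162 to 751 in entinostat alone, with 0 without overlap and a median of -0.78; the selectin Selp of activated endothelium had a log2 fold change of -1.28 ± 1.04. Fibroblast and matrix markers (5 of 6 tested) summed to 1140 to 1672 in the triple combination and 1178 to 1652 in entinostat alone, median -0.42. Dendritic cell markers (2 of 7 tested) summed to 53.3 to 332 in the triple combination and 159 to 218 in entinostat alone. Of the 2 tested, Itgax was without overlap, lower, against 18.6% of all tested genes. The panel's single T and NK cell marker of the list and its single B cell marker were below the limit in every group, and of 9 mast cell, basophil and eosinophil markers only Siglecf was tested (-0.70 ± 0.37, no overlap, lower).

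**Figure D4:**
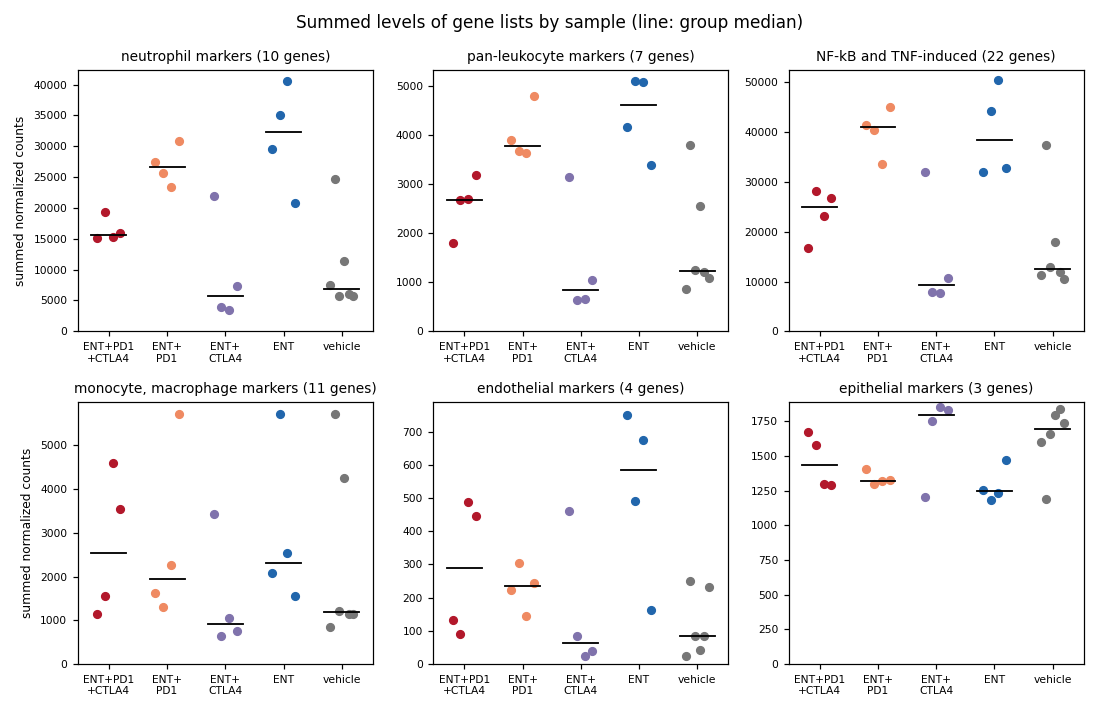
Summed normalized counts (vertical axes, from 0) of 6 gene lists in every sample of the 5 groups, with group medians as lines. Neutrophil, pan-leukocyte and NF-kB sums of the 4 triple samples lie below those of the 4 entinostat samples, and the monocyte, endothelial and epithelial sums of the 2 groups overlap. ENT+CTLA4 sample a and vehicle sample 2 stand apart from their groups in the first 3 panels.

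Set against entinostat plus anti-PD-1, the triple combination differs in treatment by anti-CTLA-4. The 4 samples of entinostat plus anti-PD-1 were all run on cartridge 1, with triple sample a, so that treatment and cartridge cannot be told apart for triple samples b, 2 and 4. This comparison and the next share the triple samples with the one above and are not independent of it. No gene passed (0 of 420, 0%; lowest limma adjusted p 0.602), 33 genes had an unadjusted p under 0.05 (7.86%), 25 lower (5.95%) and 8 higher (1.9%), and 56 had no overlap on the lower side (13.3%) and 8 on the higher (1.9%). Fold changes were negative for 247 genes (58.8%), with a median of -0.064 over all tested genes (-0.25 with cartridge as a block, -0.47 for triple sample a within cartridge 1) and -0.66 over the neutrophil genes. Il17ra averaged 139 ± 2.61 normalized counts in the triple combination and 208 ± 17.8 in entinostat plus anti-PD-1 (SD, n = 4 each), a log2 fold change of -0.57 ± 0.19 by limma. Map2k1, a kinase of the MAP kinase cascade, averaged 161 ± 15.9 in the triple combination and 214 ± 9.59 in entinostat plus anti-PD-1 (-0.41 ± 0.12). Adgre5 (-0.44 ± 0.15) and Gadd45b (-1.12 ± 0.44) also had no overlap on the lower side. On the higher side Ercc1, a DNA repair nuclease subunit (0.49 ± 0.17), Gata3 (0.47 ± 0.18), Smad1 (0.48 ± 0.18) and Ttk, a mitotic checkpoint kinase (0.55 ± 0.23), had no overlap.

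Against entinostat plus anti-CTLA-4 the triple combination differs in treatment by anti-PD-1, and the signs of most fold changes are the other way. All samples of both groups but triple sample a were run on cartridge 2. Again 0 of 420 genes passed (0%; lowest limma adjusted p 0.148), with 115 at an unadjusted p under 0.05 (27.4%), 111 higher (26.4%) and 4 lower (0.952%), 112 negative fold changes (26.7%), a median of 0.45 (0.59 within cartridge 2) and a neutrophil median of 1.13. Only 8 genes (1.9%) had no overlap on the higher side and 1 (0.238%) on the lower. Sample a of entinostat plus anti-CTLA-4 stood apart from its group, with a neutrophil sum of 21893, against 3470 to 7403 in the 3 others. Without that sample 191 genes passed, and without triple sample a 31 did. The transcription factor Sp4 averaged 49.2 ± 7.16 in the triple combination and 28.4 ± 7.71 in entinostat plus anti-CTLA-4 (SD, n = 4 each), a log2 fold change of 0.80 ± 0.21 with no overlap, while the leukocyte signalling genes Was (1.40 ± 0.37) and Pik3cg (1.32 ± 0.36) overlapped through that sample. Plau, the urokinase gene, averaged 340.1 ± 66.5 in the triple combination and 548 ± 136 in entinostat plus anti-CTLA-4 (-0.67 ± 0.19).

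For some of the leading genes the mean of the triple combination lay between those of entinostat with either antibody. Cxcr4 averaged 698 ± 164 normalized counts in the triple combination, 1141 ± 126 in entinostat plus anti-PD-1, 434 ± 322 in entinostat plus anti-CTLA-4 and 1353 ± 252 in entinostat alone (SD, n = 4 each), with 430.2 ± 238 in vehicle (SD, n = 6). The ranges of mean ± SD overlapped between the triple combination and entinostat plus anti-CTLA-4 or vehicle, and not between the triple combination and entinostat plus anti-PD-1. Jak3 averaged 97.6 ± 18.2, 139 ± 18.4, 78.5 ± 18.6 and 176 ± 9.96 in these 4 groups and 93.9 ± 17.1 in vehicle. S100a4 averaged 2068 ± 379 in the triple combination, 2041 ± 203 in entinostat plus anti-PD-1, 2061 ± 421 in entinostat plus anti-CTLA-4, 1476 ± 58.3 in entinostat alone and 2458 ± 432 in vehicle. Its mean was lowest in entinostat alone, and the 3 groups with an antibody lay within each other's SD.

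The number of genes called differed between fits, and most of those called were lower in the triple combination. Whole barcode counts could be recovered for 11 samples of the 3 groups triple combination (without sample a), entinostat plus anti-PD-1 and entinostat alone. On these counts edgeR's quasi-likelihood test with the deposited scaling called 44 genes lower (10.5%) and 1 higher (0.238%), DESeq2 called 22 lower (5.24%) and 3 higher (0.714%), and edgeR with TMM scaling called 5 lower (1.19%) and 1 higher (0.238%). Limma on the same 11 samples called 15 lower (3.57%) and 0 higher. All 15 were among the 44 genes of edgeR, and 43 of the 44 were among the 78 with no overlap. Fpr2, Selplg, Cxcr4, Hdc and Acod1, the itaconate-forming enzyme of activated myeloid cells, were the 5 lower genes that the 3 count tests called, and S100a4 was the higher one. With the deposited scaling edgeR called 8 of the 13 neutrophil genes lower, 7 of the 13 chemokine receptor and adhesion genes, 4 of the 21 NF-kB genes and 3 of the 7 pan-leukocyte markers, against 10.5% of all genes. With TMM scaling edgeR called 1, 2, 0 and 0 members of these lists, against 1.19% of all genes. Limma on the same 11 samples called 3, 2, 0 and 1, against 3.57%. The list counts thus depend on the scaling and the test. Limma with sample weights, which gave triple samples a, 2 and 4 weights of 0.564, 0.306 and 0.581 and sample b 2.17, called 98 lower (23.3%) and 8 higher (1.9%). Within cartridge 1, where triple sample a alone was set against the 4 entinostat samples and its spread was taken from the other samples, 2 genes passed, both lower, and with cartridge as a block 0 did.

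**Figure D5:**
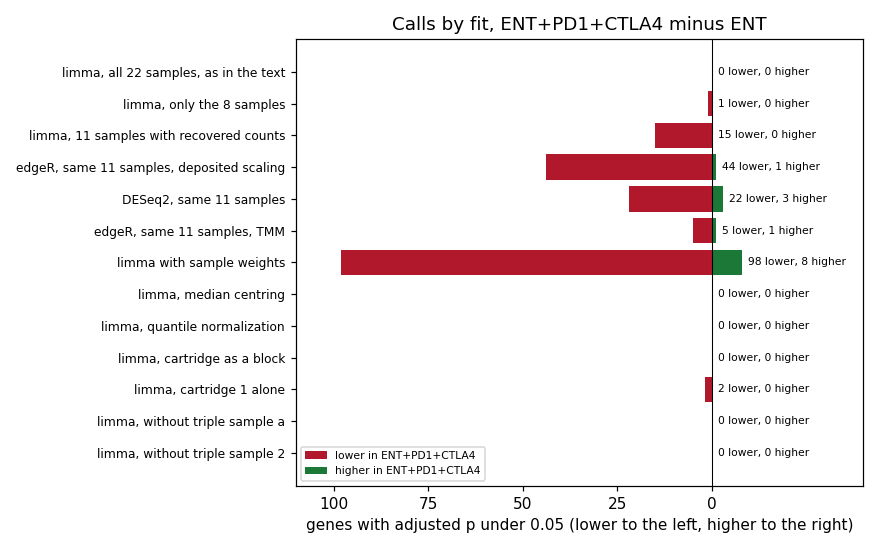
Number of genes with an adjusted p under 0.05 (horizontal axis; lower in the triple combination to the left, higher to the right) in 13 fits of the triple combination minus entinostat. Calls are lower genes in the main, from 0 in the fit of all 22 samples to 98 with sample weights.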

How the data were processed

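The deposited table gives 22 samples as normalized counts, a linear signal, and covers 655 endogenous and 20 housekeeping genes beside 8 negative and 6 positive control probes. How the authors normalized them is not given in the sources used here; limma is the only tool in the submitters' processing notes, with no role stated. In the deposited signal values the housekeeping genes were nearly level (geometric mean 172 to 194). Values in each sample were whole multiples of a fixed step within 0.1 normalized count (100% of values up to the limit checked), which gave back barcode counts. Count tests used the 11 recovered samples of 3 groups. Triple sample a, in which 11 values stood at exactly 1 (a floor, not a multiple of its step), was not among them; 1 entinostat plus anti-PD-1 sample that was used has 7 such values.

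Group means of log2(normalized count + 1) were fitted for the 5 groups with limma 3.58.1 (R 4.3.3) on all 22 samples together, with 17 residual and 2.14 prior degrees of freedom. Genes whose mean, taken on the log2 scale, stayed under 29.3 normalized counts in every group were not tested (235 genes); this limit is 2 SD over the mean of the negative controls. Calls have a two-sided Benjamini-Hochberg adjusted p under 0.05 over the 420 genes. Replicates are not tied to separate animals, so p-values measure the spread between samples, pooled over the 5 groups, which may be technical. Counting error adds to the spread of low values. Alternatives were edgeR 4.0.16 and DESeq2 1.42.0 on recovered counts, other scalings, filters, pseudocount, sample weights, blocks and left-out samples.

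The members and the 24 gene lists were chosen with earlier results of these data known. Named are the 5 genes with the smallest p in each direction of each comparison, 12 genes of suppressive and neutrophil function, and up to 4 members of each list with the smallest p. Itgam, Ccr1, Ccrl2, Il1b, Tnfaip3, Acod1 and Ly6g were added after their values were seen, and the rule names further genes that are not reported here. In simulated data with the spreads of the 420 genes, with known changes in the triple combination against entinostat, limma found 67% of 100 genes whose log2 change was 1 and 90% of 100 whose change was 2, with 2 false calls of 159. For changes of these sizes in simulated counts, edgeR with the deposited scaling found 75% and 100%, with 5 false calls of 180. Limma takes log2 values and edgeR takes counts, so these percentages do not rank the 2 tools. The simulations used the spreads of single genes and changed 100 of the 420 genes at each size, as many up as down. With so many changed genes the Benjamini-Hochberg limit is easier to pass than in the real comparison. There 0 genes passed and 306 fold changes were negative. The simulations cannot give the recovery or the false calls in the real samples, where triple sample a stood lower across the panel and cartridges differed between the groups. Of the 655 symbols, 645 were in the RefSeq gene table, and promoter windows are from RefSeq, build GRCm38.p6. The files name no build.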

Additional observations from a re-analysis of the deposited data

Results flagged for a closer look

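Of 202 groups of 4 samples examined for a sample far from the others, 9 had a gap to the nearest sample larger, as a share of the group's range, than the 95% critical value of Dixon's test, about what chance gives (1 in 20 groups). In the triple combination, sample a stood below its mates in Ptprc (445.7 normalized counts, gap 0.913) and in Vav1 (141, gap 0.848), and it was the lowest of the 4 in both leukocyte genes. Triple sample 4 stood above in Smad1 (97.1, gap 0.943), and triple sample 2, the shallowest, above in Tlr3 (97.8, gap 0.844). In entinostat alone, sample 4 stood below its mates in the endothelial gene Cdh5 (22.5, gap 0.878), in Ikzf1 (31.5, gap 0.919) and in Ly6c1 (71.9, gap 0.888). Entinostat sample 3 stood below in Tlr3 (37.6, gap 0.884) and in Ttk (24.5, gap 0.915).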

How the results depend on the processing

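For the triple combination minus entinostat, the count of called genes was 0 as reported. It was also 0 with a pseudocount of 10, without the background filter, after median centring or quantile normalization, with cartridge as a block, and without triple sample a and vehicle sample 3 together, with or without triple sample 2 as well. It was 1 with only the 8 samples compared (Fpr2), 1 with the filter met in every group (Jak3), 2 within cartridge 1 (Nr4a2 and Il1rl1), 2 with values below background raised to its limit (Fpr1 and Jak3), 106 with sample weights, 45 with edgeR and the deposited scaling, 6 with edgeR and TMM, 25 with DESeq2, and 15 with limma on the recovered samples. Leaving out 1 sample at a time gave 0 to 3 (3, namely Jak3, Fpr1 and Il17ra, when sample a of entinostat plus anti-CTLA-4 was out). Against entinostat plus anti-PD-1 only DESeq2 called genes, 17, and leaving out 1 sample gave 0 to 0. Against entinostat plus anti-CTLA-4 the count of 0 became 207 with sample weights and 35 without triple sample a and vehicle sample 3. It became 73 with a replicate block on the numbered samples and 214 on those samples with no replicate block. In these 2 groups the numbered samples were triple samples 2 and 4 and entinostat plus anti-CTLA-4 samples 1 and 3. Samples a and b of both groups were thus left out. Leaving out 1 sample gave 0 to 191 (31 without triple sample a, 191 when sample a of entinostat plus anti-CTLA-4 was out). Count tests were not run for that comparison.

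Deviations of samples with replicate number 2 correlated at 0.38 between the triple combination and entinostat, and those with number 4 at -0.52. So few pairs cannot settle whether shared replicate numbers mark paired samples. The replicate block was fitted on numbered samples only, so the triple combination was samples 2 and 4, without a and b. With that block 0 genes passed against entinostat (lowest limma adjusted p 0.174, median log2 fold change -0.096). Of the 98 tested named genes, the fold change took the other sign for 17 after median centring, 14 after quantile normalization and 18 with TMM. It did so for 19 with the replicate block and also for 19 on the same numbered samples with no block. Changes of size without a change of sign were not counted. Triple sample 2, with 23296 barcode counts, limits what can be said of genes near background. The fits with limma on the recovered samples, with raised values, on numbered samples without a block, without 3 samples together and without single samples of the groups outside a comparison were added after seeing the data; the edgeR and DESeq2 fits were planned. The cause of these differences was not tested.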
